A study of Mus musculus with 9 samples.

Results

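Genes that set the adult mouse cornea and tendon, tissues built on fibrous collagen, jointly apart from the adult lens were identified on Affymetrix oligonucleotide arrays. The comparison used 7 of the series' 9 arrays. Cornea (3 arrays) and tendon (2 arrays) entered as group means of equal weight, and their average was set against lens (2 arrays). A probe set was a member when every cornea array and every tendon array lay on one side of both lens arrays. Of 12422 probe sets other than the 66 spike-in and control sets, 2631 (21.2%) lay above lens in this way and 2606 (21.0%) below. A filter kept the 8154 probe sets whose value exceeded the array median on at least 2 of the 9 arrays, and those were tested. A probe set is called shared below when the groups did not overlap and limma, a moderated linear model, gave the fibrous average against lens an adjusted p under 0.05. The limma call alone held for 4443 probe sets (54.5%), of which 2494 (30.6%) were higher and 1949 (23.9%) lower. Together with the rule it held for 3504 (43.0%). Of these, 1776 probe sets for 1487 genes were higher in both fibrous tissues and 1728 for 1438 genes were lower, 21.8% and 21.2% of those tested, and these shares are the background for each count that follows. At least 2-fold in both tissues were 667 (8.18%) higher and 979 (12.0%) lower. Both criteria read the same arrays, so the absence of overlap is not independent of the test.

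Corneas came from 7-week-old mice and were cut free of the limbus. Their epithelium was scraped off, and per the submitters some epithelial RNA remained, with no unscraped cornea among the arrays to measure how much. The tendon was the flexor digitorum longus, a toe flexor, and lens and tendon also came from 7-week-old animals. Each replicate was an independent preparation of total RNA, lenses and tendons were pooled before extraction, and strain, sex and genotype were not given in the sources used here. The spread behind each adjusted p is thus one between RNA preparations, and the small number of arrays limits the precision. Because 2 arrays of postnatal day 10 (P10) cornea took no part in the rule, their values are given beside some members.

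Cornea and tendon are connective tissues in which fibroblasts, called keratocytes in the cornea and tenocytes in tendon, lay down type I collagen fibrils whose width and spacing are held by small leucine-rich proteoglycans. The lens has neither fibroblasts nor fibrils. It is an epithelium enclosed in a thick basement membrane, the capsule, and its fibre cells fill with crystallins, soluble proteins that give the lens its refractive power.

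The expression index is in arbitrary units and had an array median between 67.6 and 88.0. Differences are given on the scale log2(index + 16), with values below 0 set to 0 first, which understates changes of weakly measured genes. Errors are standard errors (SE) of limma's fit, folds are taken on the same scale, and no fold is given where a group mean is at or below 0. Over all tested probe sets the median difference between fibrous tissue and lens was 0.13. The adult cornea arrays served as baselines in an earlier study by the same group, so a difference between array runs and a difference between cornea and the other tissues cannot be told apart. One cornea array, replicate 1, had a 3' to 5' signal ratio of 2.25 for Gapdh against 0.831 to 1.04 on the other 8 arrays. Without it 1783 probe sets were shared and higher and 1741 lower.

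**Figure D1:**
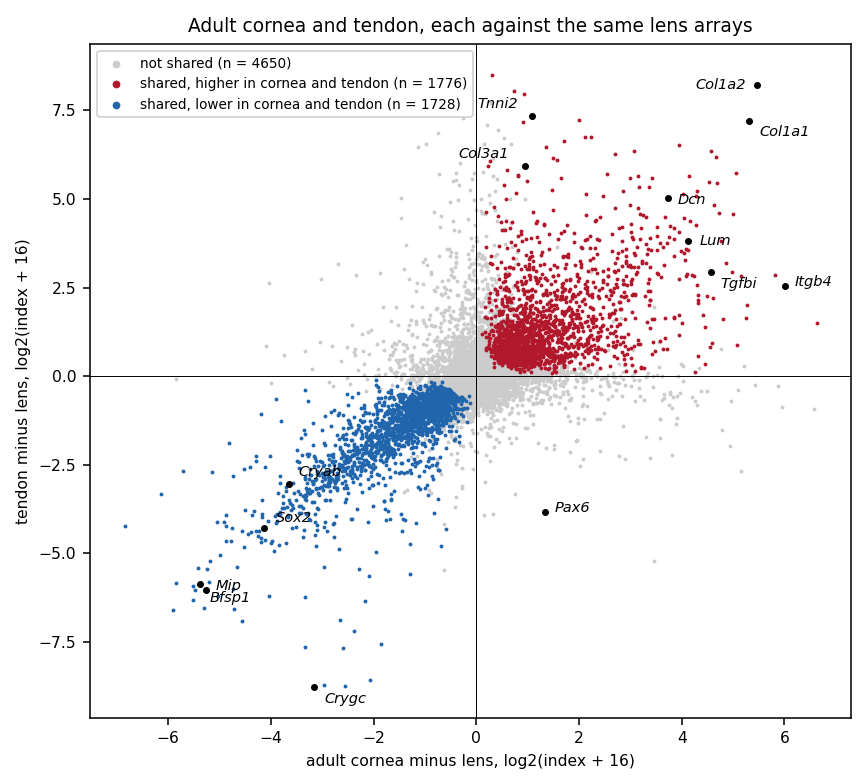
Log2 difference of adult cornea from lens (horizontal axis) and of tendon from lens (vertical axis) for the 8154 tested probe sets, with both axes sharing the lens arrays. Red points are the 1776 shared higher probe sets, blue points the 1728 shared lower ones and grey points the 4650 others. Shared points fill the upper right and the lower left, and many lie off the diagonal because cornea and tendon differ in size of change.

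Members that were higher in fibrous tissue had smaller differences than those that were lower. The median of the smaller of the cornea and tendon differences was 0.82 for the higher set and 1.11 for the lower set, and 210 higher against 385 lower probe sets passed 4-fold in both tissues. Cornea and tendon themselves differed (limma adjusted p under 0.05) for 722 of the higher probe sets, 40.7%, and for 372 of the lower ones, 21.5%. Over all tested probe sets that share was 35.0%. The plot of both differences shows this spread about the diagonal. These contrasts between the higher and lower sets depend on the filter and the floor. A lower member could pass the filter through its 2 lens arrays alone. A lens mean at or below 0 was found for 156 higher probe sets, and a fibrous mean at or below 0 for 66 lower ones. With the array median required on at least 5 arrays, 1450 were shared higher and 1061 lower. The part of filter and floor in the contrasts was not tested. At the edge of the rule, Rtf2 was just inside the higher set, with a top lens value of 60.0 against a lowest fibrous value of 60.0, apart by less than 0.001 on the log2 scale, and Amotl2 was just outside it. Taf1d was the probe set just inside the lower set and Scrg1 just outside it.

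The chains of type I collagen were among the named genes furthest above lens. Of 15 tested genes for fibril-forming and fibril-associated collagens, 8 were shared and higher and 3 lower, with a median difference of 1.88, where all 6109 tested genes gave 22.15% higher, 20.89% lower and a median of 0.14. The 8 were Col1a1, Col1a2, Col3a1, Col5a1, Col5a2, Col6a1, Col6a2 and Col6a3, which are the chains of types I, III and V found in fibrils and of the beaded-filament type VI. Type I is the principal collagen of both stroma and tendon. In bulk tissue fewer cells of a type and less RNA per cell cannot be told apart, here and in what follows.

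Col1a1, which encodes the alpha-1 chain of type I collagen, read 39.9 and 43.6 on the lens arrays, 2283, 2315 and 2239.7 on the cornea arrays and 8130.2 and 8924 on the tendon arrays. Both fibrous tissues stood far above lens without overlap, and tendon stood above every cornea array. The average difference was 6.26 ± 0.13 (SE, limma adjusted p = 3.32e-09), or 39.8-fold in cornea and 148-fold in tendon. Its partner Col1a2 read 29.4 and -49.3 in lens, 1203, 1404 and 975 in cornea and 7758 and 8277 in tendon (limma adjusted p = 2.51e-07), and no size is given because its lens mean was below 0. A further Col1a2 probe set was shared and lower, at 220.0 and 270.3 in lens and 143 to 186 on the fibrous arrays. At P10 the cornea arrays gave 6137 and 6766 for Col1a1 and 4489 and 4629.6 for Col1a2, between adult cornea and tendon.

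The 250 bases upstream of the Col1a2 start, from the RefSeq promoter table of build GRCm38.p6 (chr6:4505368-4505617, plus strand), are printed because type I collagen is the main fibril collagen of both tissues. The capitals mark a CCAAT box, a motif bound by the general factor NF-Y, found at -109 to -105 from the start.
Col1a2: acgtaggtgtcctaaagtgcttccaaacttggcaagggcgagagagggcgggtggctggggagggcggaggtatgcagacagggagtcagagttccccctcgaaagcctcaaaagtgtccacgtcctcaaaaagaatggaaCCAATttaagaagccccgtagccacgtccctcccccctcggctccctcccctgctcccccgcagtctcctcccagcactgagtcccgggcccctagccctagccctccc
A search for CCAAT on both strands found it in 33.8% of the 32851 upstream windows of this length in the table and in 1 of the 6 higher collagens that have an entry. A match describes the letters and is not evidence of a binding site.

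Collagens of types III, V and VI followed type I unequally. Col3a1, which encodes the chain of the type III collagen of compliant tissue, read 60.6 and 34.4 in lens and 3615 and 3898 in tendon, but only 75.8, 157 and 91.6 in cornea. It was 60.7-fold higher in tendon and 1.92-fold in cornea, and tendon exceeded cornea by 4.98 on the log2 scale (limma adjusted p = 6.3e-07). P10 cornea gave 1538 and 1380.5 for the same probe set. With the 5 fibrous arrays treated as 1 group, which puts the gap between cornea and tendon into the spread, Col3a1 was no longer called, and neither were Lox, Mfap5, Scx, Scd1 and Tnni2 among the genes described below. Col5a2, a chain of the type V collagen that limits fibril width, read 14.8 and 11.2 in lens, 381, 214 and 171 in cornea and 1421 and 1431 in tendon. Col6a1 was 6.22-fold higher in cornea and 16.3-fold higher in tendon (3.33 ± 0.19, limma adjusted p = 5.28e-07). All 3 followed one order, lens below cornea below tendon, with no overlap.

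Not every collagen was higher in fibrous tissue. Col8a1, a network collagen of the membrane beneath the corneal endothelium, read 369 and 380.1 in lens against 70.1, 86.3 and 61.3 in cornea and 150.3 and 199 in tendon, and P10 cornea was above lens at 466 and 437. Col12a1 and Col9a2, chains of fibril-associated collagens, were the other lower members.

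Small leucine-rich proteoglycans bind collagen fibrils and control their growth and spacing. Of 7 tested, 4 were shared and higher and none lower, with a median difference of 3.06. The 4 were decorin (Dcn), lumican (Lum), biglycan (Bgn) and keratocan (Kera).

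Dcn read 242 and 157 in lens, 2989.9, 2484 and 2922 in cornea and 6588 and 7248 in tendon, 13.3-fold and 32.8-fold above lens (4.38 ± 0.17, limma adjusted p = 1.1e-07). Bgn was 5.32-fold higher in cornea and 22.4-fold in tendon. Both were higher in tendon than in cornea. Lum, a keratan sulphate proteoglycan of the corneal stroma, read 35.2 and 28.5 in lens, 1156, 783 and 595 in cornea and 631 and 668 in tendon. Kera, named for the cornea, read 15.8 and 7.69 in lens, 311, 183 and 144 in cornea and 213 and 236 in tendon. For these 2 genes the tendon values lay within the cornea range, and the cornea to tendon difference was 0.32 (limma adjusted p = 0.403) for Lum and -0.14 (limma adjusted p = 0.759) for Kera. P10 cornea was above both adult tissues for Lum, at 2087 and 1524, and for Kera, at 441 and 345.

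Fibromodulin (Fmod), a proteoglycan of tendon fibrils, was not a member. Its tendon values of 5455 and 6342 were 49.7-fold above lens, but its cornea values of 123, 177 and 106 lay between the lens values of 215 and 45.2. Ogn, also not a member, was called lower on the average but overlapped. Chad was not a member either, with tendon above and cornea below lens on every array.

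**Figure D2:**
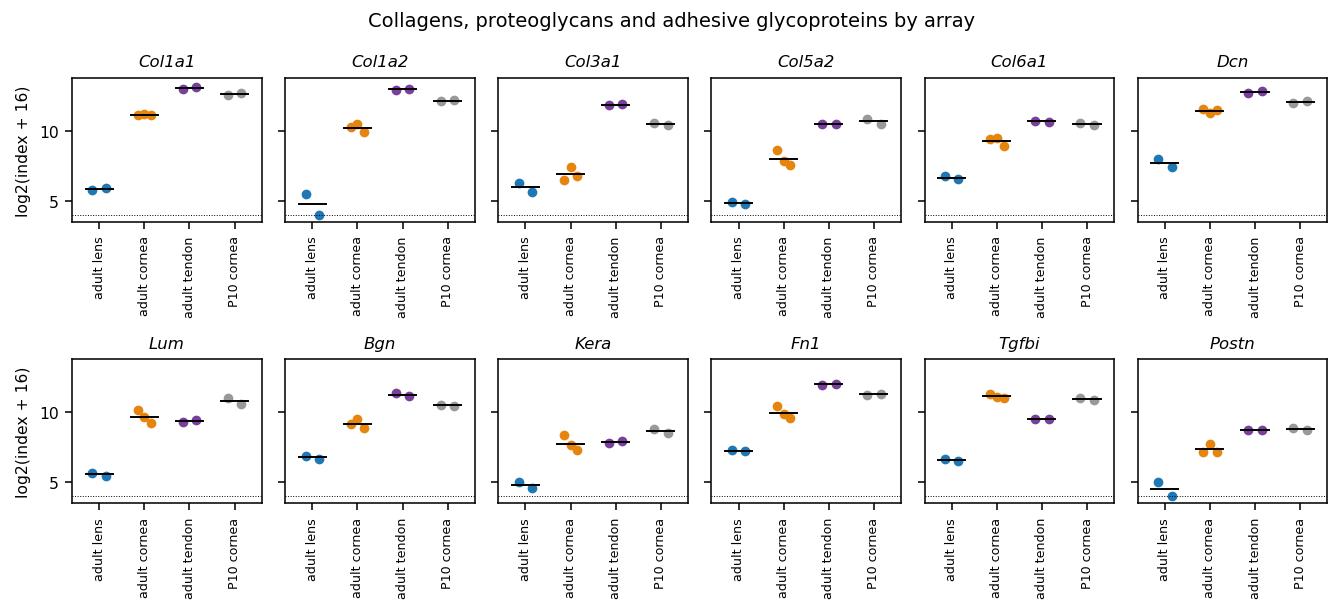
Expression index on a log2(index + 16) axis for 12 matrix genes on each lens, adult cornea, tendon and P10 cornea array. Points are arrays, black bars are group means and the dotted line is the floor for an index of 0. For all 12 genes both lens arrays lie below the 5 adult fibrous arrays, with tendon above cornea for most and cornea above tendon for Tgfbi.

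Adhesive and matricellular glycoproteins link cells to the matrix or modify their attachment to it. Of 16 tested, 8 were shared and higher and none lower, with a median difference of 1.78. Tgfbi, an adhesion protein whose mutated form deposits in the cornea, read 87.0 and 74.0 in lens, 2545, 2185 and 2117 in cornea and 714 and 725 in tendon. It was 23.8-fold higher in cornea and 7.64-fold in tendon, the reverse order to type I collagen, and cornea exceeded tendon by 1.64 (limma adjusted p = 3.97e-05). Fibronectin (Fn1) read 142 and 134 in lens, 1361, 906 and 768 in cornea and 4035 and 4179 in tendon. Periostin (Postn), which supports collagen crosslinking, was at 16.3 and -3.66 in lens, 126, 197 and 128 in cornea and 409 and 407 in tendon. Dermatopontin (Dpt), a decorin-binding protein, was 4.09-fold and 9.03-fold higher. Sparc, a collagen-binding glycoprotein, was not a member because the third cornea array (538) lay below the first lens array (654), although tendon reached 4947 and 5379.9.

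Enzymes that fold, trim and crosslink collagen gave no common direction. Among 12 tested, 3 were shared and higher (Lox, Pcolce and Crtap) and 3 lower (P4ha2, P4hb and Plod3), with a median of 0.03. Without lens replicate 2, 5 were lower. Lysyl oxidase (Lox), which crosslinks collagen and elastin, read -39.2 and 7.55 in lens, 125, 61.7 and 54.1 in cornea and 1800.5 and 2418 in tendon. Plod3, a lysyl hydroxylase of collagen chains, read 734 and 667 in lens against 88.6, 119.8 and 209.8 in cornea and 89.9 and 150.0 in tendon, so that lens was highest by this probe set (-2.36 ± 0.30, limma adjusted p = 0.000107). By a further Plod3 probe set tendon, at 108 and 118, was above lens, at 65.5 and 41.3, and cornea overlapped lens. P4hb, a subunit of prolyl 4-hydroxylase, fell by 1.28 on the log2 scale (limma adjusted p = 0.000843) by the probe set that represents it, and a further P4hb probe set was shared and higher by 1.55 (limma adjusted p = 0.00182). The collagen chaperone Serpinh1 overlapped, with 580.0 and 321 in lens, 524, 556 and 275 in cornea and 1545 and 1914 in tendon.

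Basement membrane genes also split. Of 18 tested, 6 were shared and higher and 5 lower, with a median of 0.19. The 5 lower genes were Col4a1, Col4a2, Col4a5, Col18a1 and Nid1, which encode collagens IV and XVIII and nidogen, components of the lens capsule. Col4a5 read 514 and 372 in lens and no more than 13.9 on any fibrous array, while P10 cornea gave 70.0 and 71.3. Col4a1 read 2484 and 1648 in lens, 219, 201 and 207 in cornea and 739 and 862 in tendon, a fall of 9.06-fold in cornea and 2.5-fold in tendon (-2.25 ± 0.19, limma adjusted p = 5.68e-06). On the higher side, perlecan (Hspg2), a heparan sulphate proteoglycan, read 15.9 and 29.0 in lens, 122, 184 and 102 in cornea and 241 and 271 in tendon.

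Among 10 elastic fibre and microfibril genes, 4 were shared and higher and 2 lower. Mfap5, a microfibril glycoprotein, was 1.85-fold higher in cornea and 14.1-fold in tendon, and Ltbp4, which tethers latent TGF-beta to microfibrils, 2.61-fold and 6.56-fold. A further Mfap5 probe set was shared and lower, by -1.75 (limma adjusted p = 0.000195). Of 14 matrix proteases and inhibitors, 7 were higher and 1 lower. Serpinf1, a collagen-binding serpin that inhibits vessel growth, read 38.3 and 28.9 in lens, 379, 554 and 305 in cornea and 3828 and 4211 in tendon (4.71 ± 0.23, limma adjusted p = 2.68e-07), and a weaker Serpinf1 probe set was shared and lower by -0.49 (limma adjusted p = 0.044). Cathepsin K (Ctsk), a collagen-degrading protease, was 3.74-fold higher in cornea and 16.5-fold in tendon. The metalloproteinase inhibitor Timp2 was the 1 lower member, at 439.7 and 509 in lens against 107 to 199 on the 5 fibrous arrays, while a further Timp2 probe set had tendon, at 548 and 577, above lens, at 109.6 and 80.4, and cornea below.

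Genes of antigen presentation, class II among them, and of the interferon response had the highest share of higher members among the pathway lists. Of 17 tested genes, 13 were shared and higher, 76.47%, and none lower, and the median difference was 1.83. Of the class II genes tested, Cd74 was shared and higher, while H2-Aa and H2-Eb1 overlapped lens and were not members. B2m, the light chain of every class I molecule, read 92.8 and 8.5 in lens, 523, 442 and 200.1 in cornea and 1944 and 1846 in tendon (4.04 ± 0.51, limma adjusted p = 9.94e-05). The lens values were far apart, and both were below all fibrous values. For the heavy chain H2-K1 a probe set read 112 and 67.1 in lens, 1053, 1188 and 621 in cornea and 1744 and 1271 in tendon, so that tendon lay above cornea on these arrays, by less than the test could call (limma adjusted p = 0.107). H2-D1 was 7.53-fold and 11.9-fold higher. These heavy-chain probe sets carry the array's suffix for sequences common to a gene family, so their signal may be divided among relatives, and a further H2-K1 probe set lay on the lower side. Ifitm3, an interferon-induced membrane protein, was 7.17-fold and 14.1-fold higher. The 16 leukocyte markers tested had a summed index of 1944 to 1952 in lens, 1887 to 2159 in cornea and 6735 to 6875 in tendon, with 6 shared and higher and 3 lower, and their part in the result was not tested. In cornea that sum was at the lens level, but it adds markers above and below lens and does not measure leukocyte content.

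S100 proteins and annexins, families that bind calcium, counted 10 higher and 3 lower of 17. Annexin A8 (Anxa8) read 83.2 and 74.1 in lens, 1743, 2113 and 1514 in cornea and 683 and 629.9 in tendon, and S100a1 was higher by 2.57 ± 0.29 (limma adjusted p = 4.49e-05). Annexin A3 (Anxa3) went the other way, at 479 and 301 in lens and 35.6 to 115 on the fibrous arrays. Of 19 integrin and focal adhesion genes 7 were higher and 1 lower. Cavin1, a coat protein of caveolae, read 128 and 89.4 in lens, 537, 636 and 439 in cornea and 585 and 647 in tendon, so that the tendon values lay within the cornea range or just above it. A further Cavin1 probe set was shared and lower, at 174 and 209 in lens and 33.0 to 91.3 on the fibrous arrays. The membrane organiser Cd9 was 5.75-fold and 4.77-fold higher. Among 21 actin and contractile cytoskeleton genes 7 were higher and 3 lower. The probe set representing beta-actin (Actb) was 3.93-fold higher in cornea and 2.43-fold in tendon, whereas a further Actb probe set overlapped between the groups.

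Immediate-early genes, which respond within minutes to a stimulus, were mostly higher. Of 21 tested, 12 were shared and higher and 4 lower, with a median of 0.90. Junb, an AP-1 subunit, read 65.1 and 44.0 in lens, 232, 345 and 171 in cornea and 347 and 318 in tendon. Klf4, a zinc finger factor also used as an epithelial marker, read 125 and 83.9 in lens, 1871, 1631 and 1599 in cornea and 343 and 361 in tendon, while a weaker Klf4 probe set overlapped. Gadd45a, a stress-response gene, was lower, at 759.7 and 404 in lens and 46.1 to 112 on the fibrous arrays. Without lens replicate 2 the higher count was 8.

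For growth factor signalling, 9 of 25 genes were higher and 4 lower. Smad6, an intracellular inhibitor of BMP signalling, read -6.86 and -24.2 in lens, 84.9, 97.7 and 115 in cornea and 121 and 125 in tendon, with cornea below tendon by 0.28 on the log2 scale (limma adjusted p = 0.288). Gremlin (Grem1), a secreted BMP antagonist, was lower by 2.78-fold in cornea and 6.55-fold in tendon. Igf2, a fetal growth factor, read 46.9 and 20.9 in lens, 101, 151 and 137 in cornea and 220.2 and 209 in tendon, and 989 and 1217 in P10 cornea.

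**Figure D3:**
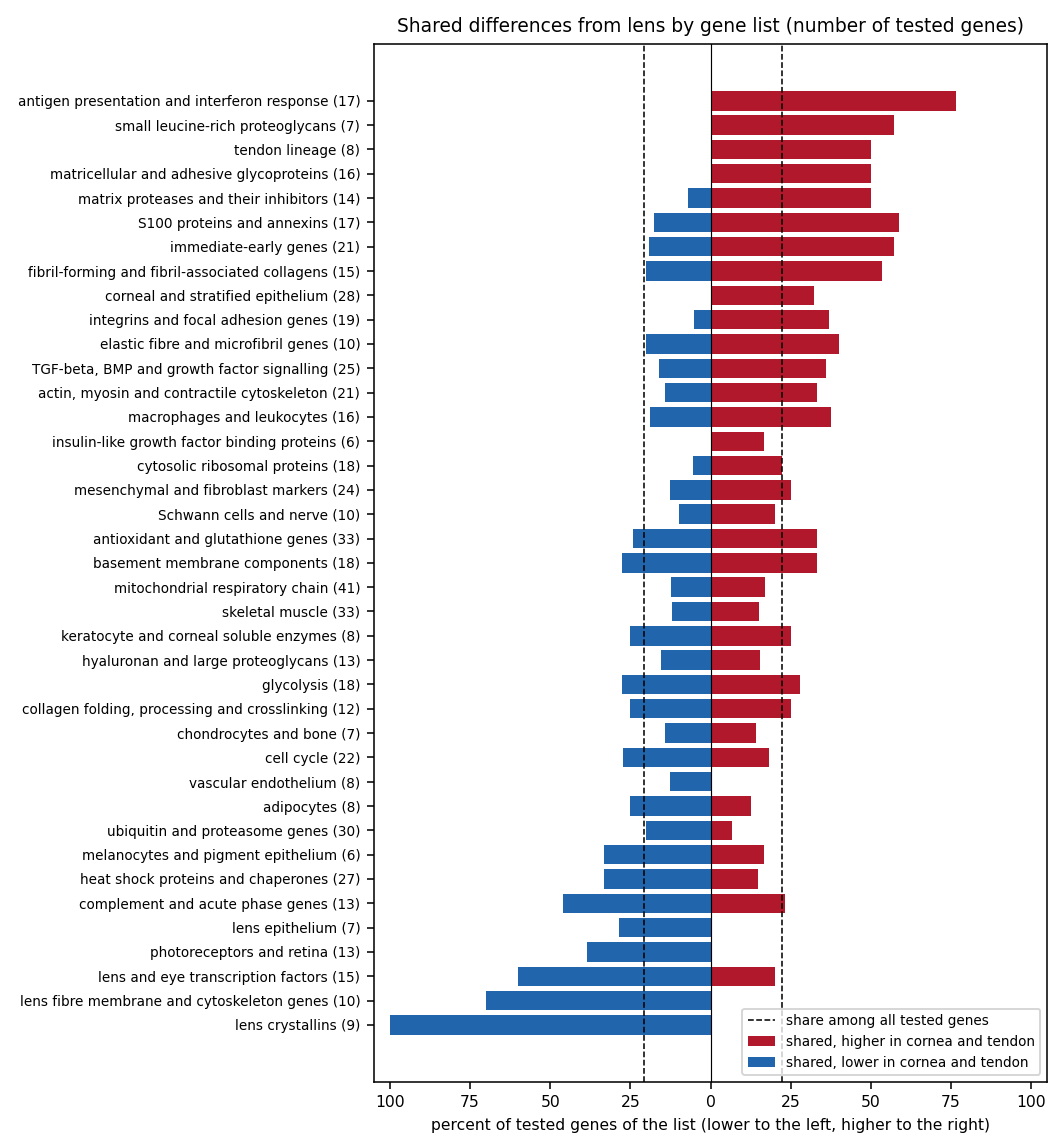
Percent of tested genes that were shared and higher (red) or shared and lower (blue) in fibrous tissue for each pathway or marker list with at least 6 tested genes. Dashed lines mark the shares over all 6109 tested genes, 22.15% higher and 20.89% lower. Antigen presentation has the longest red bar at 76.47% and the crystallins the longest blue bar at 100%.

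On the lens side the crystallins set the scale. All 9 tested crystallin genes were shared and lower in fibrous tissue, with a median difference of -4.78. Alpha crystallins are small heat shock proteins that keep other proteins soluble, and beta and gamma crystallins are structural proteins of the fibre cells.

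Cryaa, the alpha-A chain, read 6405 and 7231 in lens, 1279.7, 2443 and 2078 in cornea and 12.2 and 31.7 in tendon. Crybb2, a beta crystallin, read 6628 and 7122 in lens, 846, 1441 and 1250.3 in cornea and -52.4 and -36.9 in tendon. Crygc, a gamma crystallin of the early fibres, read 6486 and 7492 in lens, 627, 971 and 750.3 in cornea and -77.7 and -67.9 in tendon. Cornea stood far above tendon for each of the 3, and below lens on every array. With the 5 fibrous arrays as 1 group 3 of the 9 crystallins, Cryab, Crygc and Crygs, were still called and the other 6, Cryaa and Crybb2 among them, were not. A further Crybb2 probe set overlapped between the groups, and a further Crygd probe set overlapped in cornea but read 2067 and 1594 in tendon against 171 and 200.1 in lens. Cryab, Crygd and Cryge are measured by probe sets of the family type, so their signal may be divided among relatives.

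The cornea retained an appreciable crystallin signal. Its mean was 7.48% of the lens mean for Cryab, 11.2% for Crygc and 28.4% for Cryaa, the lowest, the next and the highest of the 9, and in P10 cornea it was 34.4% for Cryaa. Tendon was at most 1.77% of lens except for Cryab at 11.7%. Cornea exceeded tendon (limma adjusted p under 0.05) for 8 of the 9 genes, and tendon exceeded cornea for Cryab by 0.61 (limma adjusted p = 0.0273). Tendon arrays carried muscle markers, as given below, and their part in the Cryab values was not tested.

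Membrane, cytoskeletal and other genes of the lens fibre were mostly lower. Of 10 tested, 7 were shared and lower and none shared and higher, with a median of -3.88. Mip, the aquaporin of the fibre membrane, read 1918 and 1799.6 in lens, 27.2, 34.7 and 37.7 in cornea and 11.7 and 14.2 in tendon. The beaded-filament protein gene Bfsp1 read 3731 and 3300.0 in lens, 61.5, 65.7 and 79.5 in cornea and 46.3 and 42.6 in tendon. The connexin gene Gja3 read 546 and 415 in lens and no more than 7.27 on any fibrous array. Adult cornea was at 1.79% of lens for Mip, 1.96% for Bfsp1 and 0.405% for Gja3, each below its lowest crystallin share, but at 53.0% for the thyroid hormone carrier Ttr, a lower member of the same list and above every crystallin share. No test of a difference between the gene groups was made. Whether lens RNA in the cornea preparations contributed to the crystallin values was not tested. Cdh2 (N-cadherin) was 12.0-fold and 12.4-fold lower. Bfsp2 and Lim2 had no probe set with their symbol alone.

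**Figure D4:**
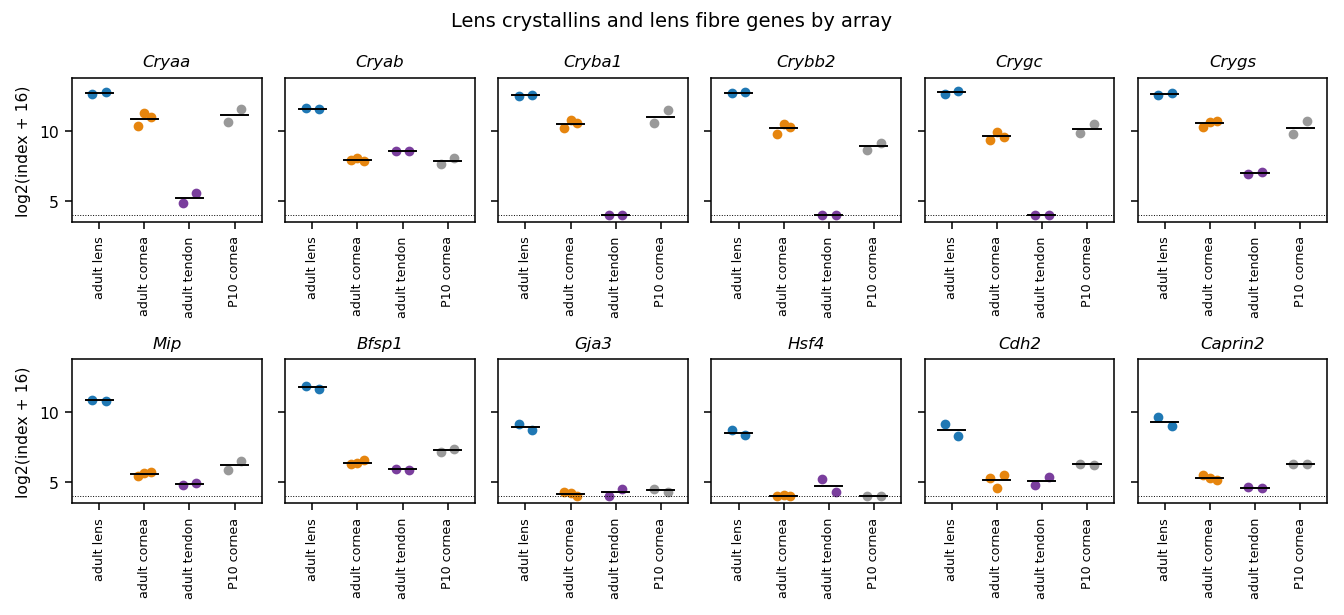
Expression index on a log2(index + 16) axis for 12 lens genes on each lens, adult cornea, tendon and P10 cornea array. Points are arrays, black bars are group means and the dotted line is the floor for an index of 0. Cornea lies well above tendon for Cryaa, Cryba1, Crybb2, Crygc and Crygs, and close to it for Mip, Bfsp1, Gja3, Hsf4, Cdh2 and Caprin2.

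Upstream windows are printed for Cryaa and Cryba1, whose crystallins showed the highest corneal shares of their lens level. The 250 bases come from RefSeq, build GRCm38.p6, for Cryaa from chr17:31677681-31677930 (plus strand) and for Cryba1 from chr11:77725294-77725543 (minus strand, written in the direction of the gene). Capitals mark TGCTGA, the core of the element bound by large Maf factors, which are regulators of crystallin genes. It lies at -108 to -103 in Cryaa and at -57 to -52 in Cryba1.
Cryaa: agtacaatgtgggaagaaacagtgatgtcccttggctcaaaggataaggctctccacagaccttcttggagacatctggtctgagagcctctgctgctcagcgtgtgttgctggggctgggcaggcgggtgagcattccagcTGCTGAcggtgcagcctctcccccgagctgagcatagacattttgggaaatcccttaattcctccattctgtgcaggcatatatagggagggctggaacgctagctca
Cryba1: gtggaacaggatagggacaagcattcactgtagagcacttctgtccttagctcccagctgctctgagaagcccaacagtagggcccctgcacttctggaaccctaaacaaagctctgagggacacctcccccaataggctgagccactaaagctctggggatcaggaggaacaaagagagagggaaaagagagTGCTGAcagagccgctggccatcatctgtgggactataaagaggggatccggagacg
Searched on both strands, TGCTGA was in 4 of the 8 crystallins with an entry, in 3 of 6 higher collagens and in 16.1% of the 32851 windows of the table. The counts are small and describe letters only. Maf itself was on the array and did not pass the filter on low values.

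Transcription factors of lens and eye were mostly lens-side. Of 15 tested, 9 were lower and 3 higher, with a median of -1.02. Sox2, which with Pax6 starts lens formation, read 548 and 312 in lens and 5.06 to 12.6 on the 5 fibrous arrays. Hsf4, a heat shock factor of fibre cells, read 408 and 311 in lens, -3.74, 1.11 and -9.64 in cornea and 21.3 and 3.6 in tendon. Prox1, needed for fibre elongation, read 233 and 175 in lens and stayed at or below 17.6 on every fibrous array. Pax6 was not shared, since its cornea values of 833, 619 and 579.5 were above the lens values of 326 and 199 and its tendon values of 3.8 and 2.39 were below them. Six3, another eye regulator, was a member on the higher side, with lens at -30.0 and -22.1 and fibrous arrays at 59.5 to 90.1.

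The mesenchymal list held genes on both sides. Of 24 tested, 6 were higher and 3 lower. Twist2, a mesenchymal regulator, was highest in lens, at 2533 and 2674 in lens, 188, 156 and 160.2 in cornea and 83.1 and 78.1 in tendon (-4.30 ± 0.19, limma adjusted p = 1.82e-07). Snai1, a repressor active in epithelial to mesenchymal transition, was lower by 1.94-fold and 2.47-fold. Vimentin (Vim), the intermediate filament of both fibroblasts and lens cells, was below lens on every fibrous array, with 164 and 181 in lens, 103, 53.5 and 129 in cornea and 150.1 and 130.0 in tendon, but was not called (limma adjusted p = 0.0964).

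Molecular chaperones keep proteins folded. Of 27 heat shock and chaperone genes 9 were lower and 4 higher, with a median of -0.06. Hspb2, a small heat shock protein gene beside Cryab, read 1698 and 1812 in lens, 59.1, 75.8 and 70.2 in cornea and 261 and 313 in tendon by its leading probe set, while a further Hspb2 probe set was not shared. Both Cryab and Hspb2 were higher in tendon than in cornea. The chaperonins Hspe1 and Tcp1 were lower by 3.05-fold and 3.07-fold in cornea and 4.25-fold and 4.46-fold in tendon, although a weaker Tcp1 probe set overlapped.

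Protection against oxidation divided by gene. Of 33 antioxidant and glutathione genes 11 were higher and 8 lower, with a median of 0.26. Heme oxygenase Hmox1, which degrades heme, read 2206 and 1940.0 in lens, 160.1, 110.2 and 179.7 in cornea and 117 and 131 in tendon, so that cornea and tendon overlapped far below lens (-3.79 ± 0.20, limma adjusted p = 3.85e-07). The glutathione transferase Gstp1 was lower by 4.42-fold and 3.72-fold. Metallothionein Mt1, a metal-binding scavenger, was higher by 7.78-fold in cornea and 4.44-fold in tendon, and the microsomal transferase Mgst3 by 12.6-fold and 8.84-fold.

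In glycolysis 5 of 18 genes were higher and 5 lower. The brain-type aldolase Aldoc read 1546 and 904 in lens, 88.8, 157 and 77.8 in cornea and -15.3 and -8.05 in tendon. The glucose transporters Slc2a1 and Slc2a3, which do not need insulin, were lower by 2.45-fold and 2.34-fold in cornea and 6.29-fold and 2.95-fold in tendon. Slc2a4, the insulin-dependent transporter of muscle and fat, was higher, at 21.7 and 4.17 in lens, 84.0, 67.9 and 115 in cornea and 349 and 383 in tendon. Of 22 cell cycle genes 6 were lower and 4 higher. Without tendon replicate 2, 2 were higher. The cyclin-dependent kinase inhibitors Cdkn1b and Cdkn1c, which hold fibre cells out of the cycle, were 3.5-fold and 19.6-fold lower in cornea and 7.28-fold and 4.78-fold lower in tendon. Respiratory chain genes (7 higher and 5 lower of 41), ribosomal proteins (4 and 1 of 18) and ubiquitin and proteasome genes (2 and 6 of 30) had shares close to or below those of all genes. Single arrays moved these counts. Without lens replicate 1 the respiratory counts became 12 and 0 and the proteasome counts 6 and 2, without cornea replicate 3 the higher proteasome genes were 5, and without lens replicate 2 or tendon replicate 2 the higher ribosomal genes were 1.

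Complement and acute phase genes were lower in 6 of 13 cases and higher in 3, with a median of -0.54. C1qa, a chain of the first complement component, read 749.8 and 662 in lens, 53.1, 51.6 and 80.9 in cornea and 77.1 and 100.4 in tendon. C1qc, a further chain, was not shared, with tendon above lens and cornea below it on every array. For C1qb the probe sets disagreed, since one was shared and lower and the other shared and higher. Such conflict was not rare. Of 976 genes with several tested probe sets, 636 had at least 1 that was shared, 146 had every probe set shared in one direction and 79 had probe sets shared in both directions.

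The 15 largest higher and 15 largest lower differences, Col1a1, Col1a2 and other genes described above among them, were less easily read. Of the 15 higher probe sets 13 had a lens mean at or below 0, and 7 had a lens array below -100. Abcc3, a transporter, read -451 and -582 in lens, 425, 319 and 433 in cornea and 1331 and 973 in tendon, and Gucy2c, an intestinal receptor, -607 and -984 in lens with 278 to 586 on the fibrous arrays, while a further Gucy2c probe set overlapped. Such values below 0 carry no level, and only their side of lens is reported. More strongly measured were apolipoprotein D (Apod), a lipid carrier, at 23.6 and 16.1 in lens, 502, 759.8 and 473 in cornea and 964 and 1607 in tendon, and Crip1, a LIM-domain protein, at -29.9 and -21.5 in lens, 312, 573 and 264 in cornea and 1153 and 1421 in tendon. The antiprotease Slpi was among the 15 by one probe set, while a further Slpi probe set was shared and lower and another was not shared.

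Among the 15 lower probe sets, besides Mip, Bfsp1 and Gja3, were Mgat3, a glycosyltransferase that adds the bisecting sugar, at 1634 and 1433 in lens and no more than 15.9 on any fibrous array, and Synj2, a lipid phosphatase of membrane traffic, at 1406 and 1543 in lens and 6.49 to 29.7 on the fibrous arrays. Basp1, a membrane-bound growth-associated protein, read 2077 and 1536 in lens and 27.9 to 52.2 on the fibrous arrays. P10 cornea was higher than adult cornea for Basp1, at 190.1 and 245, and for Mgat3, at 73.3 and 175. Fcgr1, an immunoglobulin receptor of macrophages, read 1320.3 and 1281 in lens and 3.68 to 41.2 on the fibrous arrays.

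Markers of other cell types moved with the tissues. For 28 stratified epithelium markers the summed index was 5299 to 5612 in lens, 36390 to 39940 in cornea and 5120 to 6263 in tendon, and 20 were called higher on the average but 9 were shared. Without tendon replicate 2, 14 were shared. For 14 of the 28 the cornea and tendon averages lay on opposite sides of the lens average. One was the keratin Krt12, at 1758 and 1603 in lens, 6614, 6685 and 8290 in cornea and 401 and 257 in tendon. Among the shared members Krt14, a keratin of basal epithelium, read 4.18 and 10.2 in lens, 759, 1067 and 789 in cornea and 124 and 20.5 in tendon. Integrin beta 4 (Itgb4), an anchor of the epithelial base, read -23.7 and -20.8 in lens, 1083, 1166 and 837 in cornea and 77.0 and 78.1 in tendon. For 33 skeletal muscle markers the sum was 4463 to 4985 in lens, 1853 to 2184 in cornea and 75180 to 84811 in tendon, with 23 called higher but 5 shared and higher and 4 lower. Without lens replicate 2, 11 were shared and higher, and without cornea replicate 1, 8 were. The fast troponin Tnni2 read 0.455 and -4.55 in lens, 34.5, 11.8 and 12.9 in cornea and 2447 and 2776 in tendon, and is a member through small cornea values. Adipocyte markers summed to 9756 to 9896 in tendon against 1999 to 2241 in lens and 852 to 1356 in cornea. The fat-synthesis enzyme Scd1 was 1.75-fold higher in cornea and 50.6-fold in tendon by the probe set representing it, and its other probe sets overlapped in cornea. The part of epithelial, muscle and fat RNA in members that belong to these lists was not tested.

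The tendon label was checked against genes of its lineage, and further marker lists are given beside it. The tendon-lineage list of 8 genes summed to 12953 to 14377 in tendon against 1103 to 1127 in cornea and 397 to 608 in lens. Chad alone gave 5239 and 5617 of the tendon sums. The tendon regulator scleraxis (Scx) read 39.4 and 44.3 in lens, 76.9, 83.4 and 122 in cornea and 272 and 340.2 in tendon. The 5 corneal endothelium markers tested summed to 469 to 636 in cornea, 1162 to 1531 in lens and 2326 to 2339 in tendon. Of these, 2 were shared and higher and 3 lower. Photoreceptor genes were lower in 5 of 13 cases and higher in none, and in 9 cases without cornea replicate 3. The rod transducin Gnat1 read 905 and 582 in lens, 14.8, 191 and 120.1 in cornea and 1.77 and 1.53 in tendon, and the summed index of the list was 3593 to 5414 in lens, 2143 to 4319 in cornea and 802 to 868 in tendon. The part of retinal RNA in the lens preparations was not tested.

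Cornea and tendon lay on opposite sides of lens on every array for 531 tested probe sets, 6.51%. Cornea was above and tendon below lens for 237, and the reverse held for 294. Of the 531, cornea and tendon differed by limma's adjusted p under 0.05 for 508. Aldh3a1, the aldehyde dehydrogenase abundant in corneal epithelium and keratocytes, was picked as an example after its values were seen. It read 696 and 484 in lens, 5874, 6378 and 7563 in cornea and -6.41 and -14.1 in tendon. Igfbp7, a secreted growth factor binding protein chosen in the same way, read 1286 and 896 in lens, 147, 155 and 119 in cornea and 1901 and 2019 in tendon.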

How the data were processed

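The deposited table holds 1 intensity per probe set and array, an expression index in arbitrary units, including values below 0. Per the labels' design text, the authors used Microarray Suite 5.0 and then dChip with invariant-set normalization, and the submitters' processing notes name MAS5. Which program gave the deposited values, and the genome build, are not given in the sources used here. The members and gene lists were chosen with earlier results of these data known.

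Values below 0 were set to 0, 16 was added and log2 was taken, with no further scaling. Probe sets above the array median on at least 2 arrays were fitted over all 9 arrays and 4 groups with limma 3.58.1 in R 4.3.3 (lmFit, eBayes, Benjamini-Hochberg adjustment over 8154 probe sets, 5 residual degrees of freedom). Of the 12422 probe sets, 10833 had 1 gene symbol in GEO's platform annotation, 396 several and 1193 none, and only the first were named. Genes with several probe sets are represented in lists by the one with the highest mean.

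Named genes are the 15 higher and 15 lower shared probe sets with the largest smaller difference and at least 2-fold in both tissues, up to 4 shared members per list, and a set of matrix and lens genes named whatever they did. Other members are listed by name without values. Rtf2, Amotl2, Taf1d, Scrg1, Aldh3a1, Igfbp7, Krt12, C1qc, Ttr, Ogn and Chad were picked after their values were seen. A simulation placed every group at the lens mean, with normal noise of each probe set's own spread. The same change was added to cornea and tendon for 200 of the 8154 probe sets. The fit recovered 55% of 200 changes of 2-fold and 92% of 200 changes of 4-fold, with 0.901% and 4.66% of calls false. In the data 54.5% of probe sets were called and cornea and tendon differed for 35.0%, so these rates do not carry over.

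Replicate numbers were checked for pairing. The deviations of same-numbered arrays from their group means correlated between -0.363 and 0.201. In a group of 2 arrays the deviations mirror each other, so few of these values are independent. The check therefore cannot exclude a batch common to same-numbered arrays, and the main fit did not use the numbers as pairs. Alternatives covered the pseudocount, filter, scaling, samples fitted, weighting, call rule, replicate block, the methods' t-test and leaving out each array.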

Additional observations from a re-analysis of the deposited data

Results flagged for a closer look

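Pax6, the eye regulator, differed between the fibrous tissues against the same lens arrays. On the log2(index + 16) scale adult cornea exceeded tendon by 5.17 (limma adjusted p = 2.18e-07). All 3 cornea arrays, at 833, 619 and 579.5, lay above the lens arrays at 326 and 199, and both tendon arrays, at 3.8 and 2.39, lay below them. P10 cornea gave 936 and 728. The fibrous average fell by 1.25 below lens (limma adjusted p = 0.0013), with the tissues on opposite sides. Such opposite sides were seen for 259 probe sets called higher on the average and for 55 called lower, counted by group means.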

How the results depend on the processing

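No alternative that was refitted changed the sign of the average difference for any of the 176 named probe sets, 171 of which were shared. Among the counts, lower members outnumbered higher ones in some settings, such as median centring with 1650 shared higher and 1883 shared lower. Of the 171, 155 were shared in every fit that left out an array, 135 in every other refitted setting and 128 in all of these. The call in both contrasts, the 2-fold rule and the methods' t-test were not applied to the named probe sets. A setting whose filter dropped a probe set was not counted for it. The main counts were 1776 shared higher, 1728 shared lower, 2494 called higher and 1949 called lower. Requiring the array median on at least 5 arrays left 1061 shared lower and 1231 called lower, with fewer probe sets tested. Treating the 5 fibrous arrays as 1 group, which puts the cornea to tendon difference into the spread, left 1178 shared higher and 1183 called higher. Requiring a call in both separate contrasts left 1206 called higher. Requiring 2-fold in both left 667 and 979 shared, and 694 and 987 called, higher and lower. The methods' criteria joined a t-test p under 0.05 to a fold of at least 2 and a difference of at least 100 index units. Required in cornea and tendon separately, they gave 268 and 696 shared, and 271 and 696 called. With the t-test p adjusted by Benjamini-Hochberg they gave 44 and 318 shared, and 46 and 318 called. Leaving out each array in turn gave 1330 to 2091 shared higher, 1439 to 1891 shared lower, 1600 to 2695 called higher and 1479 to 2083 called lower. The 1600 and the 1330 were without lens replicate 2 and the 2091 without lens replicate 1, where the 1 remaining lens array is assumed to vary like the other groups.

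With the replicate block, 1769 were shared higher and 1749 lower, and no count moved by over 1.5 times. Leaving out the probe sets with a value below -100, chosen after seeing the data, left 1731 and 1714. Median centring moved the median difference from 0.13 to 0.07, and the higher share of shared probe sets from 50.7% to 46.7%. That share was 57.7% under the stricter filter, 59.2% without lens replicate 1 and 45.1% without lens replicate 2. The index has no stated detection call here, so values near or below 0 show only a side.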
